A study of Saccharomyces cerevisiae with 6 samples.

Results

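The comparison described here sets a single inducer library against a single vehicle library of Saccharomyces cerevisiae. Both were taken after 6.5 h in sporulation medium, labelled as 6.5 h in meiosis, and 1.5 h after the addition. For each open reading frame (ORF) the ratio was log2((inducer + 1) / (vehicle + 1)) of the deposited normalised values, and an ORF was kept when the larger of its 2 values was at least 20. This kept 5746 of 6679 ORFs. Of these, 290 (5.05%) were at least 2-fold lower in the inducer library, and 392 (6.82%) were at least 2-fold higher. More ORFs passed this limit downwards at 6.5 h than at 6 h, with 26 of 5739 (0.453%), or at 7 h, with 129 of 5724 (2.25%), so the lower ORFs are the main subject. Upwards it was passed by 142 ORFs (2.47%) at 6 h and 494 (8.63%) at 7 h. With 1 library a side there is no replicate check and no p-value, so every ratio describes these 2 libraries.

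All 6 libraries of the study came from strain SK1 with the genotype given as WT, and each is poly(A)-selected RNA read as 50 bp single ends. At 5 h the cells received either the ethanol vehicle or the inducer, given as bEST, and samples were taken at 6, 6.5 and 7 h, so the other pairs stand at 1 h and 2 h after the addition. The study's design text describes spliced HAC1 mRNA driven to high levels from outside its own control; the labels do not name the construct, nor say whether the vehicle cells carry it. A control culture with inducer but no driven HAC1 was not analysed here, so effects of the inducer and of HAC1 cannot be told apart.

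Hac1 drives the unfolded protein response (UPR) of yeast as its transcription factor. Its mRNA is normally spliced by Ire1 when unfolded proteins build up in the endoplasmic reticulum (ER), and Hac1 then activates genes for protein folding, degradation and transport in the ER. Cells in sporulation medium live on acetate and make acetyl-CoA from it. The acetyl groups, which can pass to mitochondria as carnitine esters, are burnt in the tricarboxylic acid (TCA) cycle and built into sugars through the glyoxylate cycle. During this time the diploid cell copies its DNA, recombines its chromosomes, divides and packs the products into spores with a new wall.

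HAC1 read 127, 128 and 98.4 in the vehicle libraries and 28926, 48866 and 53257 in the inducer libraries at 6, 6.5 and 7 h, and took 1.1% of the recovered reads of the 6.5 h inducer library. HAC1 was thus far higher in the inducer than in the vehicle library at each time, and the design text describes HAC1 driven to high levels. KAR2, the ER Hsp70 chaperone, read 1063 in the vehicle and 20196 in the inducer library at 6.5 h. The 6 markers of cells in meiosis were all present in both 6.5 h libraries: NDT80, the activator of the middle sporulation genes, read 2468 and 2316 in the vehicle and inducer libraries, and REC8, the meiotic cohesin subunit, read 784 and 1155. The other 4 were lower with inducer: DMC1, the meiotic recombinase, read 4194 and 2190, IME1 1748 and 718, IME2 3571 and 2468, and ZIP1 493 and 357. The 6 summed to 13258 in the vehicle and 9204 in the inducer library of 6.5 h; the sums were 16485 and 14569 at 6 h, and 14501 and 8041 at 7 h. The 8 haploid markers were also present in every library, with a summed value of 3407 in the vehicle and 4844 in the inducer library. Most of this level came from STE18, MFA1 and STE4. In the vehicle and inducer libraries of 6.5 h, MFA1 read 397 and 1191, and STE18 read 2109 and 2726. FUS3 (110 and 53.0), STE4 (375 and 370) and the mating receptor gene STE2 (26.5 and 25.5) were not higher with inducer. The 6 markers of mitotic G1 cells summed to 219 in the vehicle and 428 in the inducer library, a difference that came from DSE1, at 54.5 and 295. Whether cells outside meiosis take part in the ratios was not tested. In bulk RNA, fewer cells of a type and less RNA per cell cannot be told apart.

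Depth differed most at this time. Read numbers recovered from the spacing of low values were 6.02 M for the vehicle and 21.71 M for the inducer library of 6.5 h, against 9.51 to 13.28 M for the other 4. The vehicle library of 6.5 h was therefore the shallowest of the study, and 1 read in an ORF of 1000 bp was worth 0.512 there and 0.143 in its partner. Of the 290 lower ORFs, 271 had a coding length from which reads could be recovered, and 249 of these had at least 50 reads in the vehicle library. The median over the 271 was 614 vehicle reads, against 391 over the kept ORFs. As the vehicle library of 6.5 h also chose the lower ORFs, this difference is partly fixed by the choice. Intervals printed with ratios are exact 95% binomial (Clopper-Pearson) intervals on recovered reads; they cover counting error only, not the spread between cultures.

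Most of the lower ORFs differed by modest amounts. Their median value was 262 in the vehicle library, against 160 over all kept ORFs, and 107 in the inducer library. The higher vehicle median is partly fixed by the rule, because the vehicle value is the denominator of the ratio. Of the 290, 242 lay between 2- and 3-fold and 48 at 3-fold or more; 7 ORFs were at least 4-fold lower, while 111 were at least 4-fold higher. The median log2 ratio was -1.22 over the lower ORFs and -0.12 over the kept ORFs, of which 59.7% were below 0. As deposited, 42.5% of the changes of 2-fold or more were downwards; with the ratios centred on the median of the kept ORFs, 202 ORFs were lower and 453 higher, which is 30.8% downwards. Together the 290 ORFs made up 9.23% of all values in the vehicle library of 6.5 h and 3.55% in the inducer library of 6.5 h. A single ORF absent from the reference annotation, YDR278C (104758 and 33694), held much of this; without it the shares were 6.67 and 2.68%, an alternative chosen after seeing the data.

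**Figure D1:**
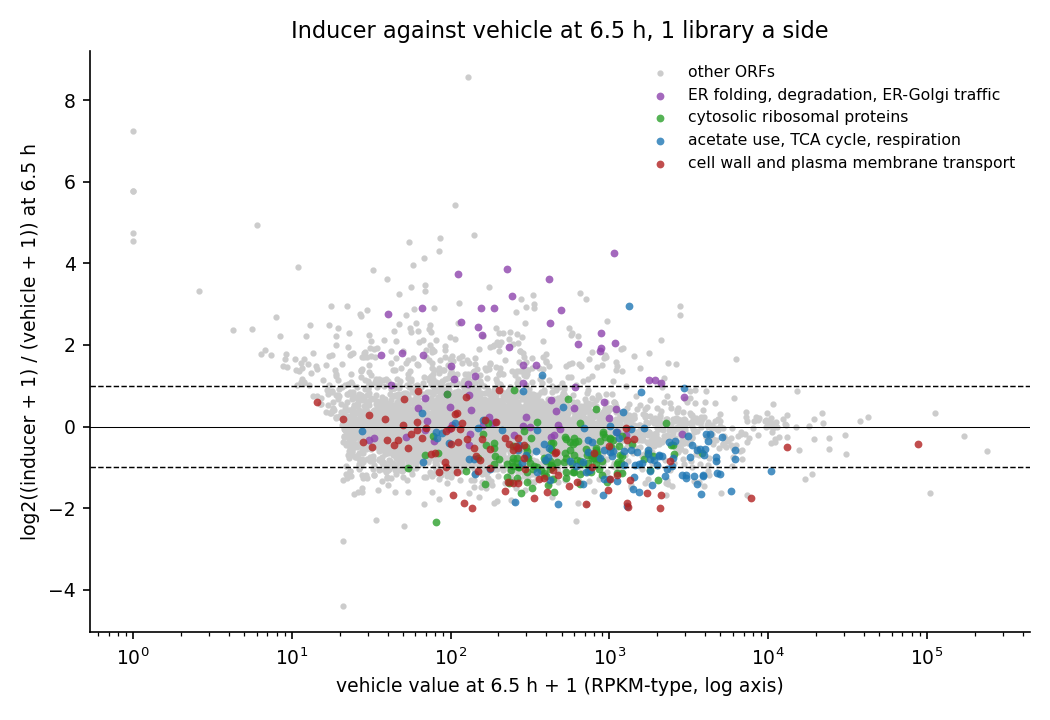
Log2 ratio of inducer to vehicle at 6.5 h (vertical axis) against the vehicle value plus 1 (horizontal log axis), 1 point per kept ORF, with dashed lines at 2-fold. Genes of the cell wall and of plasma membrane transport (red), of acetate use, TCA cycle and respiration (blue) and of cytosolic ribosomes (green) lie mostly below 0, and ER folding, degradation and ER-Golgi genes (violet) mostly above it; the ORF at the top is HAC1, at 8.56.

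Because the rule chose ORFs on this pair, 2 further counts show how each of its libraries sets them apart. In the first, the mean of the vehicle libraries of 6 and 7 h replaced the vehicle library of 6.5 h, and 204 ORFs were at least 2-fold lower. In the second, the mean of the inducer libraries of 6 and 7 h replaced the inducer library of 6.5 h, and 86 were. Of the 290 ORFs, 278 were below 0 with the first replacement and 284 with the second, and 149 and 76 were still at least 2-fold lower. Each replacement keeps a 6.5 h library that chose the ORFs, so these numbers are partly fixed by the choice. Below, such counts are called the counts with the vehicle or with the inducer library replaced. The 48 gene lists described below were chosen for the biology of sporulating and stressed yeast, with earlier results of these data known. Of these lists, 19 had 3 or more members at least 2-fold lower. Of the 290 ORFs, 155 (53.4%) were in a list, against 25.7% of all kept ORFs. This difference is partly fixed by the choice of lists. Of the 290, 19 were not in the reference annotation and 53 had no gene symbol.

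**Figure D2:**
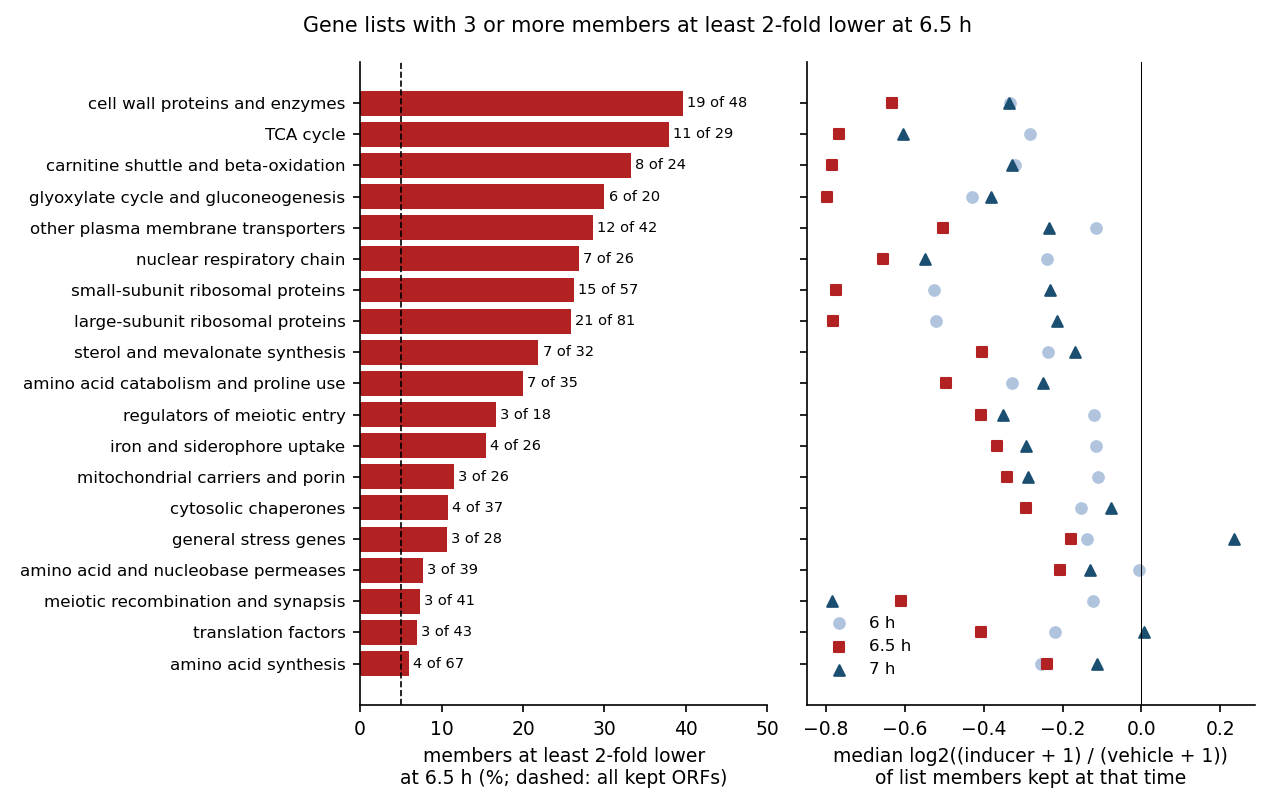
Left, percent of kept members at least 2-fold lower at 6.5 h in each list with 3 or more such members, with the dashed line at 5.05%, the share over all kept ORFs. Right, median log2 ratio of each list within the 6, 6.5 and 7 h pairs; the cell wall list leads with 19 of 48 members, and all 19 medians at 6.5 h lie below 0.

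Of the lists, that of the cell wall had the highest share of lower members, 39.6%, although the large-subunit ribosomal list had more in number (21). Among cell wall proteins and enzymes, 19 of 48 kept members were at least 2-fold lower at 6.5 h and 0 were higher, with a median log2 ratio of -0.63 against -0.12 over all kept ORFs. The summed value of the list was 41998 in the vehicle and 23105 in the inducer library. It was 36699 and 29185 at 6 h, and 32655 and 23496 at 7 h. The count was 15 with the vehicle library replaced and 10 with the inducer library replaced.

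Structural mannoproteins of the wall led the group by level. SED1, a major glycosylphosphatidylinositol (GPI) anchored wall protein of stressed and stationary cells, read 5978, 7800 and 5344 with vehicle and 4183, 2337 and 2347 with inducer at 6, 6.5 and 7 h. Every inducer value was below every vehicle value, and the 6.5 h ratio was 3.34-fold lower (log2 -1.74, interval -1.77 to -1.71). Here and below, such separation includes the 6.5 h values that chose the ORFs, so it is partly fixed by the choice. The hours are also not replicates. At 6 and 7 h alone, 18.1% of the kept ORFs had both inducer values under both vehicle values. HSP150, a Pir protein bound covalently to wall glucan, read 1108, 1304 and 708 with vehicle and 644, 332 and 375 with inducer, which was 3.92-fold lower at 6.5 h. Its groups did not overlap either. PIR3, of the same Pir family, was at 710 and 190 in the 6.5 h pair, and CCW12, an abundant GPI mannoprotein, was at 1715 and 555. PST1, a GPI protein that cells make more of when the wall is stressed, read 335 and 98.9. CWP2, CCW14 and TIP1, other GPI mannoproteins, were 2.28-, 2.42- and 3.02-fold lower. CWP2 and TIP1 differed less at 7 h, with log2 ratios of -0.22 and -0.50.

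Wall enzymes were lower as well. UTR2, a chitin transglycosylase that links chitin to glucan, read 158, 135 and 82.7 with vehicle and 78.9, 33.0 and 39.1 with inducer, so all inducer values lay below all vehicle values, and it was 4.01-fold lower at 6.5 h. CRH1, its relative with the same activity, was 2.61-fold lower. GAS1 and GAS5, which elongate beta-1,3-glucan, were 2.06- and 2.27-fold lower, and FKS1, the catalytic subunit of beta-1,3-glucan synthase, 2.14-fold. UTH1 and NCA3, members of the SUN family of wall-associated proteins, were 3.17- and 3.65-fold lower, with UTH1 at 2108 and 664. The list was not lower throughout: BGL2, an abundant glucanase, was at -0.04 and YPS1, a yapsin protease, at +0.90 on the log2 scale. Genes of the spore wall, a separate list of 26, had 0 members at least 2-fold lower and a median of 0.02.

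Outside the list, FLO11, the GPI-anchored flocculin of adhesion and filamentous growth, had the lowest ratio of any ORF with a symbol and over 50 vehicle reads. It read 358, 613 and 326 with vehicle and 246, 123 and 96.8 with inducer. The groups did not overlap, and at 6.5 h it was 4.95-fold lower (log2 -2.31, interval -2.38 to -2.26, from 5148 vehicle reads). TOS6, another GPI wall protein, read 32.9 and 5.95 but rested on 17 vehicle reads (interval -3.71 to -1.29). NCW1, a small wall protein, read 2269 and 706. The wall stress sensors MID2 and MTL1 were 2.62- and 3.06-fold lower; both were chosen after their values were seen. By the reference annotation with experimental evidence, 22 of 271 lower ORFs (8.12%) were placed in the fungal-type cell wall, against 72 of 5551 kept ORFs (1.3%), and 7 of the 11 kept structural constituents of the wall were among the lower ORFs. These annotation terms were also chosen after the values were seen.

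The promoters of the 4 genes of the wall list with the lowest ratios and the letters CTCGA are shown, because the lower ORFs differed from all ORFs in the share of promoters with these letters, the core word bound by the repressor Xbp1. They are taken from the S288C reference assembly R64 (RefSeq) by ORF name, on the coding strand, from base 300 to base 81 before the start codon; the SK1 sequence was not used. Capitals mark CTCGA on either strand (TCGAG when read on the coding strand), with overlapping matches merged.
UTR2: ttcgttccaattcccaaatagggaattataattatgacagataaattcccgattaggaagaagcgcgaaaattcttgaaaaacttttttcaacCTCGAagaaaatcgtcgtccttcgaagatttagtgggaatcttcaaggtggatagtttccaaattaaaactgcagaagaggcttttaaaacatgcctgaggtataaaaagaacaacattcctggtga
HSP150: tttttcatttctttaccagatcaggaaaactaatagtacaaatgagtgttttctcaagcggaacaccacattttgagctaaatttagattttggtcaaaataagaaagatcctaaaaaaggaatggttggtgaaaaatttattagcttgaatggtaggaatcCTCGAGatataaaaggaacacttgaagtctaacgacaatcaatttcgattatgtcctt
NCA3: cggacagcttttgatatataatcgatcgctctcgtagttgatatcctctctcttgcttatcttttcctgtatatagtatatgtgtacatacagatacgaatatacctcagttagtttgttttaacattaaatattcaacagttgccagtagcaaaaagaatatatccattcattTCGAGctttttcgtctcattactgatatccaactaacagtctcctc
UTH1: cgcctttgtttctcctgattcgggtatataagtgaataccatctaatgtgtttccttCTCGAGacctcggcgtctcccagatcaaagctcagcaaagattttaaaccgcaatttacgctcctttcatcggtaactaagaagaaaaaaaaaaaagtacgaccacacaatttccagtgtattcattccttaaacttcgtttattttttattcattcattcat
In HSP150 and UTH1 the word and its reverse complement overlap into a palindrome, 138 and 243 bases before the start codon. In the wall list, 14 of the 19 lower members had the word in the 300 bases before the start codon, and 11 of the other 29 did.

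Transporters of the plasma membrane formed the second surface group. In that list 12 of 42 kept members were at least 2-fold lower and 0 were higher, with a median of -0.50; the count was 8 with the vehicle library replaced and 5 with the inducer library replaced. PHO89, a sodium-coupled phosphate importer, read 3233, 2074 and 1748 with vehicle and 1787, 520 and 573 with inducer. Its 6.5 and 7 h inducer values lay far below every vehicle value, its 6 h inducer value did not, and at 6.5 h it was 3.98-fold lower. PHO84, the proton-coupled phosphate importer, was 2.48-fold lower, and PHO5, a secreted acid phosphatase named after its value was seen, 2.60-fold. AQY1, a water channel known for its role in spores, read 1279 and 347, and its paralog AQY2 read 247 and 94.5. PMA1, the proton pump of the plasma membrane, read 229 and 89.2 at 6.5 h, but differed little at 6 and 7 h, at log2 -0.36 and -0.47. The ammonium exporters ATO2 and ATO3 and the zinc importer ZRT1 were 2.39-, 2.57- and 2.43-fold lower. ENA1 and ENA5, sodium pumps, were both near 2.17-fold lower; they are near-identical copies, so their reads cannot be assigned with certainty. ADY2, an acetate permease named after its value was seen, was among the highest values of the table, at 87676 and 65479 in the 6.5 h pair, a log2 ratio of -0.42 only.

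Iron genes overlapped both surface lists. In the list of iron and siderophore uptake, 4 of 26 kept members (15.4%, against 5.05% over all kept ORFs) were at least 2-fold lower, with a median of -0.37. These were FET3, the multicopper oxidase of high-affinity iron uptake (103 and 31.4), SIT1, a siderophore transporter (554 and 200), and FIT2 and FIT3, wall mannoproteins that hold siderophore iron (217 and 72.2, and 982 and 334). FTR1, the permease that pairs with FET3, was at -0.49 on the log2 scale. Amino acid and nucleobase permeases had 3 of 39 members lower, near the share over all ORFs: THI7, a thiamine transporter, AGP1, a broad amino acid permease, and DIP5, a glutamate and aspartate permease, each between 2.31- and 2.47-fold lower. That count was 5 with the vehicle library replaced and 0 with the inducer library replaced.

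A cluster of membrane proteins of the eisosome, a furrow-like domain under the plasma membrane, was noticed after the values were seen. NCE102, which marks these domains, read 2893, 5011 and 3919 with vehicle and 1798, 1611 and 2258 with inducer. All inducer values were below all vehicle values, and it was 3.11-fold lower at 6.5 h. The SUR7-family members PUN1, YNL194C and FMP45 were 2.97-, 2.63- and 2.52-fold lower, and EIS1 2.17-fold. SUR7 itself was 1.66-fold lower, and the core structural proteins PIL1 and LSP1 were 1.18- and 1.48-fold lower.

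Genes of acetate use came next. In the list of the carnitine shuttle and beta-oxidation, 8 of 24 members were at least 2-fold lower and 0 higher, with a median of -0.79. CAT2, the carnitine acetyltransferase of mitochondria and peroxisomes, read 3033, 1283 and 2083 with vehicle and 1844, 334 and 545 with inducer. It was 3.83-fold lower at 6.5 h and 3.82-fold at 7 h, but the vehicle value of 6.5 h was itself below the inducer value of 6 h. YAT1 and YAT2, the other carnitine acetyltransferases, were 3.74- and 2.53-fold lower, and CRC1, the carnitine carrier of the inner mitochondrial membrane, 2.30-fold. AGP2, which controls carnitine uptake, was 2.23-fold lower, CTA1, the peroxisomal catalase, 2.44-fold, FOX2, a beta-oxidation enzyme, 2.15-fold, and PXA2, part of the peroxisomal fatty acid importer, 2.05-fold. The other beta-oxidation enzymes POX1 and POT1 were at -0.37 and -0.44 on the log2 scale, and the 29 genes of peroxisome biogenesis had a median of 0.00 with 0 members lower.

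The summed value of this list was lowest at 6.5 h in both arms. It was 22115, 13383 and 16659 with vehicle and 16615, 8520 and 11065 with inducer at 6, 6.5 and 7 h. CAT2, YAT2 and CRC1 also had their lowest value at 6.5 h in both arms. The count was 11 with the vehicle library replaced and 0 with the inducer library replaced. The log2 ratios of YAT2 and CRC1 then turned to 0.28 and 0.40. The glyoxylate list behaved alike: 6 of 20 members were at least 2-fold lower, with a median of -0.80, and the count was 9 and 1 under the same replacements. CIT2, the peroxisomal citrate synthase, read 14369, 5799 and 9716 with vehicle and 8624, 1931 and 3490 with inducer. Its log2 ratio was -1.59 at 6.5 h, and 0.06 with the inducer library replaced. MDH2, the cytosolic malate dehydrogenase, read 8087, 3743 and 3805 with vehicle and 4219, 1185 and 1764 with inducer, 3.16-fold lower at 6.5 h. MLS1, malate synthase, was 2.88-fold lower, PYC1, a pyruvate carboxylase, 2.46-fold, and ACS1, which makes acetyl-CoA from acetate, 2.26-fold. Enzymes of the same routes that missed the limit were IDP2 (-0.89), PCK1 (-0.78), FBP1 (-0.60) and ICL1 (-0.26, log2).

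**Figure D3:**
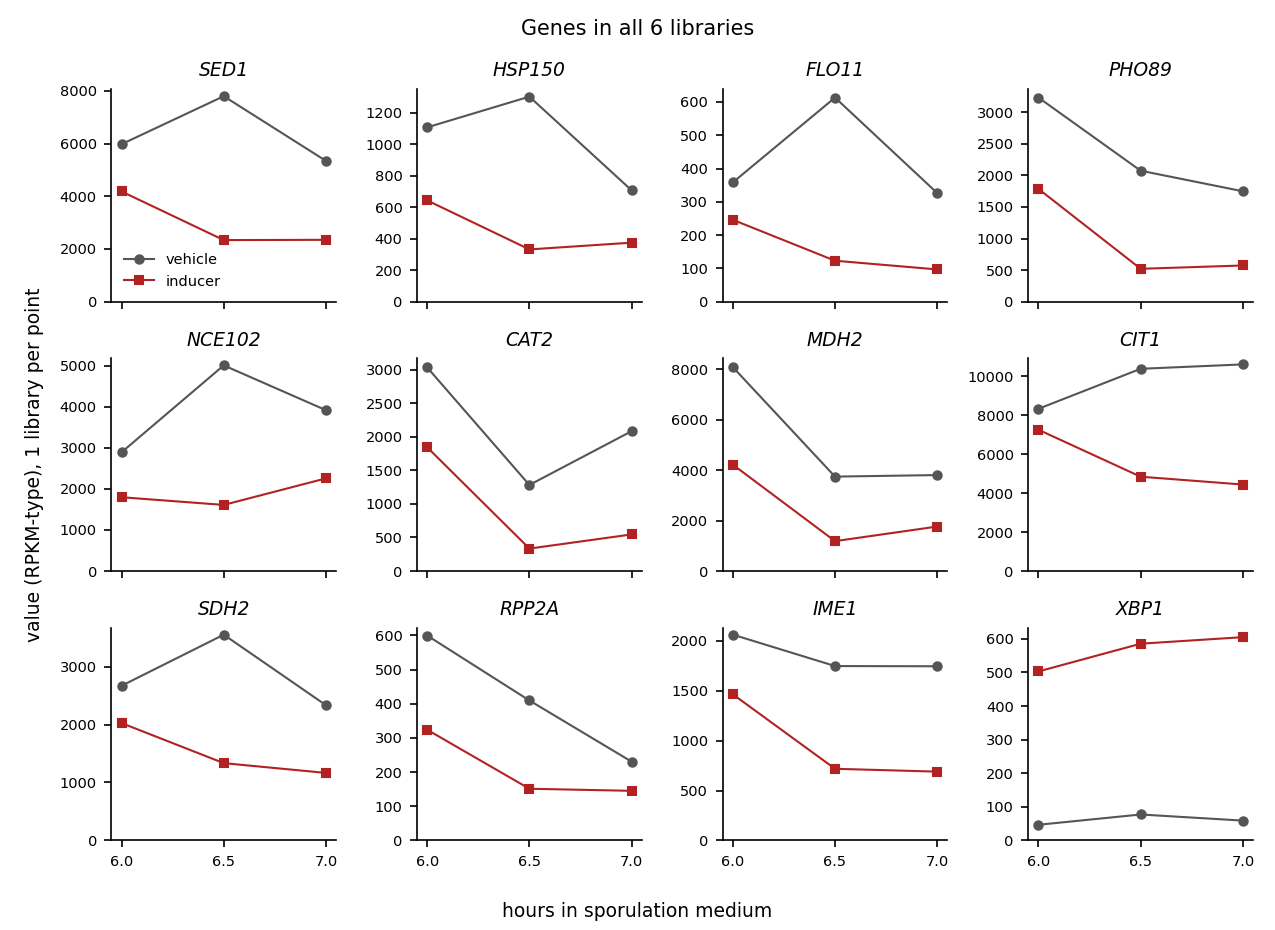
Deposited normalised values (vertical axes, each starting at 0) of 12 genes in the 6 libraries against hours in sporulation medium, vehicle in grey and inducer in red, 1 library per point. SED1, HSP150, FLO11 and NCE102 peaked in the vehicle library of 6.5 h, CAT2 had its lowest vehicle value there, and XBP1 was high with inducer at all 3 times (503, 586 and 605).

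The TCA cycle had 11 of 29 members at least 2-fold lower and 1 higher, with a median of -0.77, and 26 of 29 members below 0. Nearly each step was represented. CIT1, the mitochondrial citrate synthase, read 8334, 10390 and 10616 with vehicle and 7258, 4846 and 4443 with inducer. The inducer values of 6.5 and 7 h were well under all vehicle values, and the 6.5 h ratio was 2.14-fold lower. ACO1, aconitase, was 2.29-fold lower; IDH1 and IDH2, the subunits of NAD-dependent isocitrate dehydrogenase, were 2.26- and 2.41-fold lower. LSC1, of succinyl-CoA ligase, read 2302 and 1115, while LSC2, the other subunit of that enzyme, was at +0.95 on the log2 scale. SDH2, the iron-sulphur subunit of succinate dehydrogenase, read 2669, 3551 and 2334 with vehicle and 2025, 1334 and 1165 with inducer, so the groups did not overlap, and it was 2.66-fold lower at 6.5 h. SDH1 and SDH4, of the same enzyme, were 2.09- and 2.19-fold lower, FUM1, fumarase, 2.12-fold, and MDH1, the mitochondrial malate dehydrogenase, 2.25-fold. KGD1 and KGD2, of the 2-oxoglutarate dehydrogenase complex, missed the limit at -0.78 and -0.69, as did the pyruvate dehydrogenase subunits PDA1 (-0.57) and PDB1 (-0.61). The count was 3 with the vehicle library replaced, 6 with the inducer library replaced and 6 when the ratios were centred.

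Respiratory chain genes in the nucleus were all below 0, 26 of 26, with a median of -0.65 and 7 at least 2-fold lower. Of these 7, CYT1, QCR2, RIP1, QCR6 and QCR7 encode subunits of complex III, CYC1 encodes the main cytochrome c and CYB2 the lactate dehydrogenase that feeds it. CYT1, cytochrome c1, read 687, 910 and 510 with vehicle and 458, 285 and 238 with inducer, so the groups did not overlap, and it was 3.18-fold lower at 6.5 h. QCR7 read 3859 and 1680. Subunits of cytochrome c oxidase were nearer to 0, from COX5A at -0.85 to COX5B at -0.03, and its assembly factor COX19 was 3.28-fold lower. The count was 2 with the vehicle library replaced and 6 with the inducer library replaced. ATP1 and ATP2, the alpha and beta subunits of ATP synthase, were 2.70- and 3.05-fold lower, while STF2, listed beside them as a factor of the same enzyme, was at +2.95. Of 26 mitochondrial carriers 3 (11.5%, against 5.05% over all kept ORFs) were lower. These were CRC1, given above, PET9, the main ADP/ATP carrier (2.63-fold), and MIR1, the phosphate carrier (2.16-fold). The count was 1 with the inducer library replaced. By contrast, mitochondrial ribosomal proteins had 1 of 70 members lower (median -0.10) and mitochondrial import 0 of 36 (median -0.22). The 5 kept mitochondrially encoded ORFs had a median of 1.07; they carry no long poly(A) tail, and the selection step was not examined.

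The promoters of SDH2 and IDH2, the TCA genes with the lowest ratios that hold the letters CCAAT, are shown because this box is bound by the Hap2-Hap3-Hap4-Hap5 complex, the activator of respiratory genes. They have the same source, strand and bounds as the wall promoters, and capitals mark CCAAT on either strand (ATTGG when read on the coding strand).
SDH2: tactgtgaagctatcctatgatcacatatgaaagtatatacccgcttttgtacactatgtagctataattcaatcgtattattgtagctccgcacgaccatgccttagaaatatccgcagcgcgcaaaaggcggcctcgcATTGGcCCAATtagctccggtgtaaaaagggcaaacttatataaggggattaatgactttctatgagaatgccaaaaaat
IDH2: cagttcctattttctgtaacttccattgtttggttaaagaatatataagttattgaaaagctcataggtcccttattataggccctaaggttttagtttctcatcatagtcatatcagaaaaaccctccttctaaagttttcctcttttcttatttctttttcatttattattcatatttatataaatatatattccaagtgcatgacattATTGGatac
In the TCA list 10 of the 11 lower members had the box in the 300-base window, as did 7 of the other 18. In the respiratory list the counts were 5 of 7 and 15 of 19. Over all lower ORFs the share was 46.5%, against 41.8% of all 6007 promoters. HAP4, the regulatory subunit, was 1.33-fold lower (847 and 636), and HAP1, the haem-responsive activator, 2.21-fold; HAP4 was chosen after its value was seen.

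Cytosolic ribosomal protein genes were broadly lower by amounts close to the limit. Of 81 large-subunit genes, 77 were below 0 and 21 at least 2-fold lower, with a median of -0.78. Of 57 small-subunit genes, 53 were below 0 and 15 at least 2-fold lower, with a median of -0.77; 0 genes of either list were at least 2-fold higher. The summed value of the large-subunit list was 58369, 48835 and 31809 with vehicle and 42857, 29891 and 28351 with inducer. The inducer sum of 6.5 h was thus under the vehicle sum of 7 h by little, and the vehicle arm itself declined over the hour. The list counts were 12 and 8 with the vehicle library replaced, and 1 and 1 with the inducer library replaced. Centring took the small-subunit count to 9.

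RPS11A and RPS14B had the lowest small-subunit ratios, at 3.08- and 3.04-fold lower. In the large subunit, RPP2A, a stalk protein, read 410 and 151, RPL42A 649 and 243, and RPL39 2031 and 821. RPL41A had a still lower ratio, but it rested on 3 vehicle reads and its interval spans 0 (-6.01 to 0.70). Most of these genes exist as near-identical pairs, and no source used here says how reads shared by copies were counted; the split between RPS11A (-1.62) and RPS11B (-1.21) is therefore uncertain. Ribosome assembly genes, a list of 60 kept members, had 0 lower and a median of 0.03. Among translation factors 3 of 43 (6.98%) were lower, near the share over all ORFs, with YEF3, elongation factor 3, at 349 and 149, HYP2, which encodes eIF5A, at 4175 and 1978, and TEF1, a copy of the eEF1A gene, 2.14-fold lower. That count was 2 with the vehicle library replaced, 0 with the inducer library replaced and 1 when centred; TEF1 and TEF2 are near-identical.

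The gene of each subunit with the lowest ratio among those with CTCGA and over 50 vehicle reads is shown with the same conventions.
RPS14B: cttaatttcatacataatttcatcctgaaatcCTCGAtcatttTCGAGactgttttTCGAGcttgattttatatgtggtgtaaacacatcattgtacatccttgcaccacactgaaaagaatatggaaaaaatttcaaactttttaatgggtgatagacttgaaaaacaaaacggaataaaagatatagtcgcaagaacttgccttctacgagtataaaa
RPP2A: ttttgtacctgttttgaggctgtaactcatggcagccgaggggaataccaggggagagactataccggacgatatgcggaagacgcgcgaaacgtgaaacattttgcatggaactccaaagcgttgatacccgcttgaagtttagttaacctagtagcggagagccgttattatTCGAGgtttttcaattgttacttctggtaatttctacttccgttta
RPS14B held 3 such words within a stretch from 268 to 244 bases before the start codon. In the large-subunit list 10 of the 21 lower members had the word and 5 of the other 60. In the small-subunit list the counts were 4 of 15 and 5 of 42. Over all promoters the share with the word was 25.9%. For the TCA list the counts were 3 of 11 and 7 of 18, and for the transporter list 4 of 12 and 9 of 30. For the respiratory list they were 4 of 7 and 7 of 19, and for recombination and synapsis 0 of 3 and 7 of 38. The lists thus differed in this.

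Amino acid metabolism was mixed. In the list of amino acid catabolism and proline use, 7 of 35 members were at least 2-fold lower and 1 higher, with a median of -0.50; the count was 8 with the vehicle library replaced, 1 with the inducer library replaced and 4 when centred. CAR1 and CAR2, arginase and ornithine transaminase, read 2465 and 899, and 635 and 174. GCV1 and GCV2, of the glycine cleavage system, were 2.13- and 2.82-fold lower, and AGX1, which makes glycine from glyoxylate and was named after its value was seen, 2.77-fold. PUT1, proline oxidase, ARO9, an aromatic aminotransferase, and GAP1, the general amino acid permease, were 2.10- to 2.18-fold lower. In the synthesis list 4 of 67 members were lower, near the share over all ORFs. These included GCN4, which activates many genes of amino acid synthesis and read 4431, 3935 and 2505 with vehicle and 2893, 1425 and 1090 with inducer; its translation, not its mRNA, is known to be the main point of control. ARG1, CPA1 and ILV2, enzymes of arginine, carbamoyl phosphate and branched-chain synthesis, were 2.50-, 2.51- and 2.03-fold lower. That count was 7 and 0 under the replacements. MET6, methionine synthase, read 186 and 49.8, while other genes of the sulphur list were higher, such as STR2 (+2.08) and SUL1 (+1.83).

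Sterol synthesis held genes on both sides of 0. Of 32 members, 7 were at least 2-fold lower and 3 higher, with a median of -0.40; the lower count was 5 with the vehicle library replaced, 2 with the inducer library replaced and 4 when centred. ERG5, ERG4, ERG6 and ERG25, enzymes of late ergosterol synthesis, were 3.51-, 2.15-, 2.09- and 2.09-fold lower, with ERG5 at 238 and 67.2. HMG1, a rate-limiting HMG-CoA reductase, was 2.37-fold lower, and MVD1, of the mevalonate pathway, 2.22-fold. The remaining lower member of the list was HAP1, the activator given above with the respiratory genes, which is not a sterol enzyme (2.21-fold). The higher members were CYB5 (+3.13), an ER electron carrier, ERG20 (+1.94), farnesyl diphosphate synthase, and ERG27 (+1.14).

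Chaperones and stress genes gave a few members. Of 37 cytosolic chaperone genes 4 (10.8%, against 5.05% over all kept ORFs) were lower and 0 higher, with a median of -0.29. The count was 0 with the vehicle library replaced and 4 with the inducer library replaced. SSA1, a cytosolic Hsp70, read 1242, 1661 and 951 with vehicle and 774, 634 and 551 with inducer, and HSP104, the disaggregase, 264 and 125 at 6.5 h. SSA2 was 2.44-fold lower, but it is a near-identical copy of SSA1. STI1, a co-chaperone of Hsp70 and Hsp90, read 434 and 180. Of 28 general stress genes 3 (10.7%) were lower and 4 higher, and their median was -0.18. HOR7, a small stress-induced membrane protein, read 18899 and 8451, and TMA10, a ribosome-associated protein outside the list, 17078 and 6971; these had the highest vehicle values of all lower ORFs with a symbol. YGP1, a secreted glycoprotein made on starvation, and USV1, a transcription factor of stress and carbon use, were 2.67- and 2.17-fold lower. The stress-gene count was 0 with the vehicle library replaced and 1 with the inducer library replaced. GPH1, glycogen phosphorylase, was 3.61-fold lower (250 and 68.5).

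A few early meiotic genes were at least 2-fold lower, and middle genes mostly were not. Among regulators of meiotic entry 3 of 18 (16.7%) were at least 2-fold lower, against 5.05% over all kept ORFs, with a median of -0.41. The 1 higher member was XBP1, given below. IME1, the master activator of meiosis, read 2063, 1748 and 1745 with vehicle and 1465, 718 and 689 with inducer; all inducer values were under all vehicle values, and it was 2.43-fold lower at 6.5 h (log2 -1.28, interval -1.34 to -1.22). RIM4, a translational repressor needed for meiosis, read 2505, 2348 and 1941 with vehicle and 1795, 882 and 930 with inducer, 2.66-fold lower at 6.5 h. MSA2, a regulator of G1 transcription, was at log2 -1.26 on 58 vehicle reads, and UME6, the DNA-binding partner of Ime1, just missed the limit at -0.99. IME2, a kinase downstream of Ime1, was 1.45-fold lower at 6.5 h and 2.19-fold at 7 h. The count was 4 with the vehicle library replaced and 1 with the inducer library replaced.

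Of 41 genes of recombination and synapsis, 36 were below 0, with a median of -0.61, but 3 (7.32%) were at least 2-fold lower, near the 5.05% over all kept ORFs. HOP1, a protein of the chromosome axis, read 1090, 925 and 872 with vehicle and 815, 415 and 435 with inducer, 2.22-fold lower at 6.5 h with no overlap of the groups. REC114, needed for meiotic double-strand breaks, was 2.29-fold lower, and MER1, a meiotic splicing factor, 2.20-fold. ZIP1, of the synaptonemal complex, was 1.38-fold lower. The count was 7 with the vehicle library replaced and 0 with the inducer library replaced. Of 44 middle meiotic genes, RIM4, listed there too, was the member at least 2-fold lower, and the median was 0.00; SPS1, a spore-forming kinase, read 10410 and 10786, and CLB3, a B-type cyclin, 1755 and 1546. DIT1, for the dityrosine layer of the spore wall, read 593 and 692. Genes of DNA replication that were noticed after their values were seen included POL30, the sliding clamp (352 and 150), RNR1, of ribonucleotide reductase (162 and 76.3), MCM3, of the replicative helicase (75.0 and 32.5), and POL2, DNA polymerase epsilon (85.7 and 37.4).

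Lists with 0 members at least 2-fold lower included the proteasome (34 genes, median -0.19), autophagy (32, 0.11), the vacuolar ATPase (18, 0.17) and histones (11, -0.45). In the ER folding list 12 of 17 genes were at least 2-fold higher, with a median of 2.44, and 17 of 39 genes of ER to Golgi traffic were higher, with a median of 0.71; 0 genes of either list were lower.

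Several ORFs with low ratios gave little ground. YJL136W-A was listed at 20.1 in the vehicle library of 6.5 h and at 0 in the other 5, from 1 read. Of the 271 lower ORFs with recovered reads, 22 had under 50 vehicle reads. YDR278C had the highest vehicle value of the lower ORFs, 104758, against 33694 with inducer; it is not in the reference annotation, it had no recovered read number, and at 7 h its ratio was +0.53. Lower ORFs without a symbol can overlap or lie antisense to other genes, and no source used here says whether reads were counted by strand. Just inside the limit lay KIN2 and STE23, both 2.01-fold lower, and YBR141W-A (53.5 and 26.2), and just outside it RPS17B, RIM101 and HXK1, each 1.99-fold lower. The log2 interval of KIN2, -1.11 to -0.91, spans the limit.

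The pairs of 6 and 7 h, which the rule did not use, gave the same direction for most of these ORFs. The hours of an arm may be samples of the same culture. The pairs would then share any difference between cultures and not be independent. Of the 290, 276 (95.2%) were below 0 at 6 h and 276 (95.2%) at 7 h, against 59.6% and 54.1% of the ORFs kept at 6.5 h (59.6% and 53.9% of those kept at each hour); 269 were below 0 at both times, against 40.8%. Of the 249 with at least 50 vehicle reads, 249 were below 0 at 6 h and 246 at 7 h. The sizes were smaller: the median was -0.52 at 6 h and -0.73 at 7 h, against -0.06 and -0.05 over the kept ORFs. At least 2-fold lower were 15 (5.17%) at 6 h, against 0.418% of the kept ORFs, and 75 (25.9%) at 7 h, against 2.33%. In 166 ORFs (57.2%) both inducer values of 6 and 7 h lay under both vehicle values of those hours, against 18.1% of the kept ORFs. Of the 129 ORFs at least 2-fold lower at 7 h, 72 (55.8%) were also lower at 6.5 h, which is 24.8% of the 6.5 h set; of the 26 at 6 h, 14 (53.8%) were, or 4.83% of the 6.5 h set. The counts of 14 and 72 cover ORFs that also passed the filter on low values at that hour, and those of 15 and 75 do not ask for it.

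**Figure D4:**
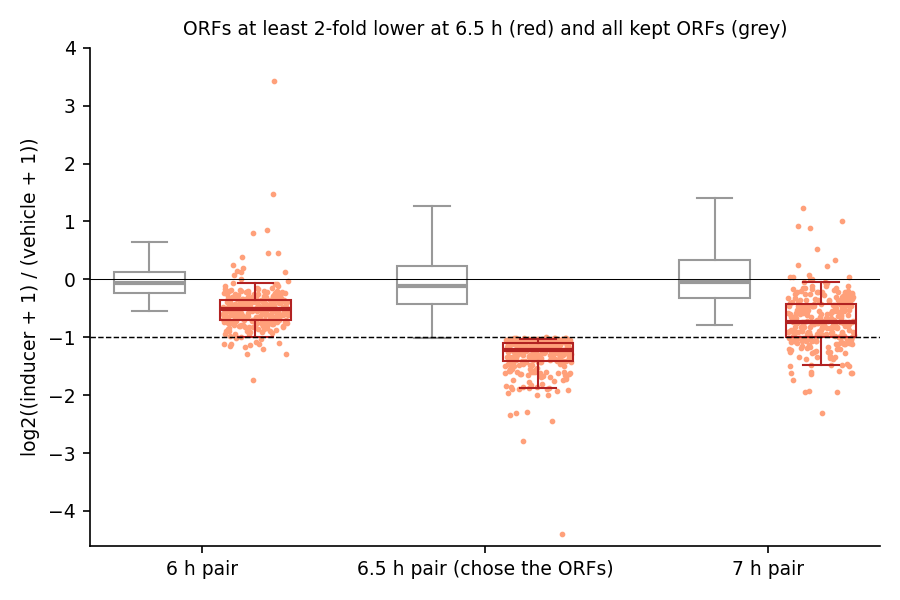
Log2 ratios within the 6, 6.5 and 7 h pairs, for all ORFs kept at 6.5 h (grey boxes) and for the 290 lower ORFs (red boxes, 1 point per ORF). Boxes show quartiles and median, whiskers the 5th and 95th percentiles; the red medians are -0.52, -1.22 and -0.73, and the 6.5 h pair is the one that chose the ORFs.

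The course within each arm was read next. With inducer, 282 of the 290 ORFs (97.2%) were lower at 6.5 h than at 6 h, against 63.1% of the kept ORFs, with a median log2 change of -0.71; from 6.5 to 7 h the median change was 0.08. With vehicle, the median change was 0.08 from 6 to 6.5 h and -0.47 from 6.5 to 7 h. The vehicle value of 6.5 h was the highest of the 3 vehicle values in 152 ORFs (52.4%, against 29% of the kept ORFs), and the inducer value of 6.5 h the lowest of the 3 inducer values in 176 (60.7%, against 29.5%). The ratio was closer to 0 or higher at 7 h than at 6.5 h in 268 ORFs (92.4%, against 62.5%). As the rule used both 6.5 h values, a more extreme value at 6.5 h than at its neighbours is partly fixed by the choice. The share of all values taken by the 290 ORFs was 8.17, 9.23 and 6.19% with vehicle and 5.48, 3.55 and 4.28% with inducer. Without YDR278C it was 7.03, 6.67 and 5.29% with vehicle and 4.67, 2.68 and 2.95% with inducer, so the highest vehicle share was then at 6 h.

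The lists stood at different levels at the other hours. The wall list had medians of -0.33 at 6 h and -0.34 at 7 h, on either side of -0.63, and the transporter list -0.11 and -0.23, on either side of -0.50. The ribosomal lists were already at -0.52 and -0.53 at 6 h and stood at -0.22 and -0.23 at 7 h, when 0 of their members were at least 2-fold lower. The TCA and respiratory lists were at -0.28 and -0.24 at 6 h and stood at -0.60 and -0.55 at 7 h, when 5 of 29 and 4 of 26 members were at least 2-fold lower. Genes of recombination and synapsis were at -0.12 at 6 h and at -0.79 at 7 h, when 10 of 41 were. Middle meiotic genes had a median of 0.03 at 6 h and 0.00 at 6.5 h, but -0.45 at 7 h, when 44 of 44 were below 0 and 3 were at least 2-fold lower. These differences between hours were not tested.

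The promoter letters were searched on both strands in the 300 bases before the start codon of 6007 R64 genes, for 16 motifs. A match is a description of letters and not evidence of binding. CTCGA was found in 115 of 271 promoters of lower ORFs (42.4%), in 24.3% of those of higher ORFs and in 25.9% of all promoters. By number of words, 3.77% of the 4136 kept ORFs without the word were lower, 7.57% of 1202 with 1, 12.7% of 165 with 2 and 10.7% of 28 with 3 or more. At 7 h, the shares were 1.6, 3.6, 3.7 and 7.14%; the last rests on 28 ORFs. The median GC content of the windows was 36.7% for lower ORFs and 35.3% for all. XBP1, which encodes the repressor that binds this word, read 46.6, 77.2 and 59.0 with vehicle and 503, 586 and 605 with inducer, 7.50-fold higher at 6.5 h; it was picked with its value known, and its part in the lower values was not tested.

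**Figure D5:**
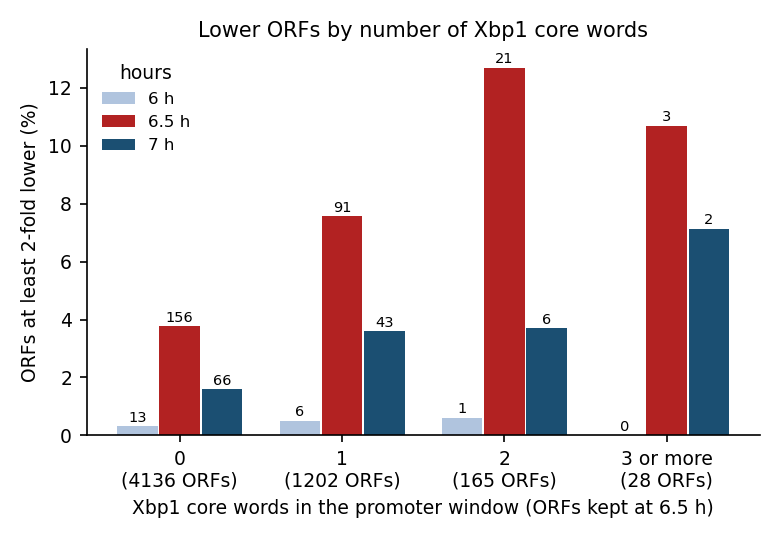
Percent of kept ORFs at least 2-fold lower at 6, 6.5 and 7 h (bars, with the number of lower ORFs above each) by the number of Xbp1 core words in the 300 bases before the start codon; numbers of ORFs in brackets are those kept at 6.5 h. At 6.5 h the share was 3.77% without the word and 12.7% with 2 words.

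The other motifs were read in the same windows. TACGTG, the core of the Hac1 element UPRE-2, was in 4.06% of promoters of lower ORFs, 18.8% of those of higher ORFs and 8.21% of all. GCCGCC, the core of the Ume6 element URS1 of early meiotic genes, was in 8.86% of the lower, 4.64% of the higher and 5.21% of all promoters, and in 16.2% of the 117 promoters of ORFs lower at 7 h. CCCCGC, a core of the Mig1 site, was in 5.9, 1.74 and 3.01%, and CCCCT, the stress response element of Msn2 and Msn4, in 28.4, 20.0 and 22.2%. GTCAC, the R box of Rtg1 and Rtg3, which activate CIT2 and other genes of the glyoxylate route, was in 18.8% of the lower and 26.5% of all promoters. TGACTC, the Gcn4 site, was in 7.75% of the lower and 7.76% of all. CAGCGTG, the core of UPRE-1, was in 0.738% of the lower and 1.23% of all, and GATGAG, a part of the PAC element of ribosome assembly genes, in 16.2 and 19.1%. CACAAA, the core of the Ndt80 site, was in 18.1 and 19.1%, and TTGGNG, a core of the Adr1 site, in 30.3 and 32.7%. GAANNTTC, units of the heat shock element, was in 11.8 and 11.5%, and CGGNNNTNA, a core of the Oaf1-Pip2 site, in 23.2 and 22.8%. The Rap1 core was in 0.738 and 0.749%, and the core of the carbon source response element, bound by Cat8 and Sip4, in 0 of 271 and 0.183%.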

How the data were processed

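Poly(A)-selected RNA of 6 yeast samples was sequenced. The authors deposited their values for 6679 ORFs, taken here as RPKM (reads scaled by ORF length and library size), without counts. This unit was inferred from the form of the values, and their scale is larger than RPKM over the recovered reads would give. With 6.02 M reads recovered in the vehicle library of 6.5 h, 1 read in an ORF of 1000 bp was worth 0.512. The reason for the larger scale is not known. Bowtie2, TopHat and SAMtools are named in the submitters' processing notes; no version, build, annotation or filter was stated. Low values rise in steps of 1 constant over coding length minus 60 bp. Of values under 40 reads, 76.5 to 80.8% were whole to within 0.02 read, which gave the read numbers used for depth and intervals; no count test was run. Columns were assigned to samples by their names, and 0 columns were left unmapped. Values were compared as log2(value + 1), which understates the change of low ORFs; ORFs with the larger value at least 20 were kept. Symbols, coding lengths and promoters came from the S288C assembly R64, in which 5994 ORFs were found; coordinates are left out because the authors' build is unknown.

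Named genes were HAC1, KAR2 and 7 meiotic genes; the 25 lowest ratios and the 15 highest vehicle values among lower ORFs with a symbol; up to 6 members of each list with 3 or more lower members, by lowest ratio; the 5 highest ratios; and 3 ORFs on each side of the limit. Other genes given as further members of a list, and those so marked, were chosen after their values were seen. The members, the 48 lists and the motifs were chosen with earlier results of these data known. The alternatives were pseudocounts of 0.1 and 5, minimum values of 5 and 50 or none, at least 50 vehicle reads, centring, upper-quartile scaling, and the replacement of either 6.5 h library by the mean of its neighbours. Python 3.11.15 with pandas 2.3.3, numpy 2.4.6 and scipy 1.17.1 was used, and the calling step was tested on simulated data.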

Additional observations from a re-analysis of the deposited data

Results flagged for a closer look

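Some results had opposite signs at 6.5 h and at another hour, each past 2-fold; the difference was not tested in any of them, and 1 library stands behind each value. Among the lower ORFs, MIN3 was at log2 1.48 at 6 h (-1.28 at 6.5 h, 15 vehicle reads) and YPR159C-A at 3.43 at 6 h (-1.05, 3 reads). YBR196C-B was at 1.23 at 7 h (-1.61, 7 reads) and YBL100W-C at 1.02 at 7 h (-1.19, 4 reads). Among the higher ORFs, YBR191W-A was at -5.09 at 7 h (5.78 at 6.5 h), YGR204C-A at -1.89 at 7 h (4.55), YGL188C at -1.55 at 7 h (1.27) and YOR008W-B at -2.18 at 6 h (1.04).

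The median of the 5 kept mitochondrially encoded ORFs was 1.07 at 6.5 h and -0.63 at 7 h. As a share of all values the mitochondrially encoded ORFs took 0.266 and 0.378% in the vehicle and inducer libraries of 6.5 h, and 0.429 and 0.279% at 7 h.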

How the results depend on the processing

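The 290 lower ORFs became 86 when the mean of the inducer libraries of 6 and 7 h replaced the inducer library of 6.5 h. Under the other alternatives the lower count lay between 202 (centred) and 375 (no filter on low values), and the higher count between 310 and 526 against 392. With the inducer library replaced, CIT2 turned to 0.063, YAT2 to 0.28 and CRC1 to 0.40 on the log2 scale; the cause was not tested. The other 115 of 118 named lower genes stayed below 0, and 49 stayed at least 2-fold lower. With the vehicle library replaced, 118 stayed below 0 and 76 stayed at least 2-fold lower. Each replacement keeps a 6.5 h library that chose the genes, so these numbers are partly fixed by the choice. No paired analysis was possible because the 6.5 h comparison has 1 library a side and comes from no test. The hours pair the 6 libraries, but a fit of treatment with hour as a block gives a mean over 3 hours and was not run. Depth limits short and low ORFs: 22 lower ORFs had under 50 vehicle reads.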

Other observations

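The highest ratios at 6.5 h, after HAC1, were those of ORFs with few or no vehicle reads. YLR349W read 1.96, 0 and 2.21 with vehicle and 28.1, 150 and 185 with inducer. YDR320W-B was listed at 0 in all 3 vehicle libraries and at 41.1, 53.9 and 51.3 with inducer, and YBR191W-A at 29.4, 0 and 33.2 with vehicle and 20.6, 53.9 and 0 with inducer. ULI1, a gene known to be induced in the unfolded protein response, read 135, 105 and 119 with vehicle and 599, 4549 and 5863 with inducer, 43.0-fold higher at 6.5 h.

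Regulators among the lower ORFs that were chosen after their values were seen were ROX1, a repressor of hypoxic genes (292 and 98.8, 2.94-fold lower), and MIG1, the glucose repressor (2.06-fold lower). SUC2, invertase, which Mig1 represses, was 2.55-fold lower (475 and 185). YPK2, a kinase of plasma membrane signalling, was 2.83-fold lower. RTG1, an activator of CIT2, just missed the limit (450 and 234, 1.92-fold lower). YOR302W, the short ORF that lies upstream of CPA1 and encodes its attenuator peptide, was 3.70-fold lower on 27 vehicle reads, and CPA1 2.51-fold on 1813.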
